A study of Homo sapiens with 4 samples.

Results

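The genes described here are 33 genes of nucleotide synthesis, the enzymes that build purine and pyrimidine nucleotides and convert them to the deoxynucleotides of DNA. They were chosen by name, as the rows of the count table whose gene name equals an entry of a fixed list, and all 33 were found among 56304 distinct gene rows. All 33 passed the filter on low counts, which 15529 genes passed in all. By role they fall into 4 branches, with 12 genes of deoxynucleotide supply, 5 of de novo pyrimidine synthesis, 10 of de novo purine synthesis and 6 of folate, phosphoribosyl and salvage supply.

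The libraries came from MV3, an established line of highly metastatic human melanoma cells, here 1 line with the genotype H2B-GFP (a green fluorescent histone), with no treatment in the labels. Spheroids of 50000 cells were embedded in collagen I and dissected at day 2. The core group was the spheroid body removed with a 1 mm punch, and the invasion group (labelled 3D invasion) was the surrounding gel removed with a 3 mm punch after it had been inspected for remaining core. As a model of the zones this has a limit, since a punch pressed down from above can also collect invaded cells over and under the spheroid body. Each zone has libraries numbered 1 and 2, 4 in all, and the comparison asks how cells that have left the spheroid differ in expression from those that remain.

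A cell obtains nucleotides in separate ways. De novo synthesis assembles the purine ring step by step on phosphoribosyl pyrophosphate, and the pyrimidine ring first with the sugar added afterwards, whereas salvage enzymes reuse bases and nucleosides. Ribonucleotide reductase, made of the large subunit RRM1 and a small subunit, RRM2 or RRM2B, then reduces ribonucleotides to deoxyribonucleotides, and thymidylate synthase (TYMS) makes the base that is particular to DNA. RRM2, TYMS and TK1 are known to be expressed mainly in cells that replicate DNA, while RRM2B and the mitochondrial TK2 are also expressed in resting cells.

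The start regions of 4 genes with a large zone difference, and the stretch shared by a divergent pair of purine genes, are printed to show the letters upstream of genes described below. RRM1, RRM2, TYMS and NME1 are 4 of the 8 members that were at least 2-fold higher, and the pair is shown because its genes start next to each other. The sequences are from RefSeq on GRCh38.p14, plus strand, and those of the 4 single genes end 1 base before a RefSeq start, which for RRM2 lies inside its longer GENCODE span. For the divergent pair the stretch between the GENCODE starts of both genes is shown. Capitals mark a match to one of 4 motifs that were searched on both strands, namely the E2F site (TTTCCCGC, TTTCGCGC, TTTGCCGC or TTTGGCGC), the E-box CACGTG, the CCAAT box CCAAT and the cell cycle homology region, or CHR, TTTGAA. RRM1 (chr11:4094435-4094684) holds a CHR 199 bases and a CCAAT box 28 bases before its start. RRM2 (chr2:10122619-10122738), printed for 120 bases only so as to leave out annotated transcribed bases, holds CCAAT boxes 93 and 66 bases before its start, and its full 250-base window holds 3. TYMS (chr18:657403-657652) holds an E2F site on the minus strand, 39 bases before its start. NME1 (chr17:51153309-51153558) holds a CCAAT box 203 bases before its start. The stretch between PPAT, on the minus strand, and PAICS, on the plus strand (chr4:56435616-56435740), is 125 bases long and holds none of these letters.
RRM1: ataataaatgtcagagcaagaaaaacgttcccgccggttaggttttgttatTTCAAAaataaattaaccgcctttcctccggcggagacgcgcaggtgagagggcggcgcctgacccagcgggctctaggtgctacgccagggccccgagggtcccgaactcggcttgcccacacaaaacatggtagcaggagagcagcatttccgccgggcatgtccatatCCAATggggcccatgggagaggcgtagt
RRM2: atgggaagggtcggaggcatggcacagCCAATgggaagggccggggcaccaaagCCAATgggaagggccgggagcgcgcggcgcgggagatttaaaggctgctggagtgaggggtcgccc
TYMS: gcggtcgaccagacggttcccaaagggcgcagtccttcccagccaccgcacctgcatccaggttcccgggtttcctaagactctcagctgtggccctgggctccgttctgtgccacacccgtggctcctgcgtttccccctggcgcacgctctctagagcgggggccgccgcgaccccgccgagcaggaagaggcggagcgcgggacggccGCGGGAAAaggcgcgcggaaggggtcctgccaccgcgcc
NME1: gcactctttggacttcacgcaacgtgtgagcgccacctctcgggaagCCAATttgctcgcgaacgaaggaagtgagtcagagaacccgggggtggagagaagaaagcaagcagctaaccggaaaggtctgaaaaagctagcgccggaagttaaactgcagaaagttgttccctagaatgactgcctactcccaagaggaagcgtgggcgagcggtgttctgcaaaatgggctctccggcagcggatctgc
PPAT-PAICS: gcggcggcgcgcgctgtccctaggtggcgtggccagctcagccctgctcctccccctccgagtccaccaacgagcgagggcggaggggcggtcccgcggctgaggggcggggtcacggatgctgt

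Over the 250 bases before each start, 44 windows of 30 members were matched by symbol, ADSS under its current symbol ADSS2, and ADSL, IMPDH2 and RRM2B had no entry. An E2F site stood in 4 of the 44 windows (9.09%), those of DUT, GART, PRPS2 and TYMS, and in 2.79% of all 35116 windows. The E-box stood in 5 (11.4%), those of ATIC, DCK, DHODH, MTHFD1 and PPAT, and in 6.34% of all windows. The CCAAT box stood in 15 windows (34.1%) against 32% of all, and the CHR in 4 (9.09%) against 13.3%. These counts of letters are a description, and no motif stood in most of the windows.

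The libraries held 36363358 and 14983135 counts in core replicates 1 and 2, and 37591782 and 11789243 in invasion zone replicates 1 and 2, so that both replicate 2 libraries were shallower. Values below are CPM, each gene's counts scaled to a common library total, and libraries were scaled by TMM factors in every edgeR test. Of 6 markers of dedifferentiated melanoma 5 passed the filter, among them AXL at 623.3 and 632.7 CPM in the core and 1220 and 1130 CPM in the invasion zone. NGFR did not, with at most 2 counts in a library. Of 10 melanocyte lineage markers 5 passed, led by SOX9 at 120.8 to 164.6 CPM, with MITF at 1.70 to 3.39 CPM, and SOX10 and TYR had 0 counts in every library. None of the 4 epithelial and 5 leukocyte markers passed the filter. The endothelial marker PECAM1 was at 17.8 and 7.48 CPM in the core and at 5.21 and 0.933 CPM in the invasion zone, while CDH5 did not exceed 4 counts nor VWF 16 counts in any library.

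The zones differed in genes outside nucleotide synthesis, and those values stand beside every result below. All 18 cell cycle markers were called higher in the invasion zone in a test blocked on the replicate number (median log2 difference 1.17), and their summed level was 1162 and 2151 CPM in core replicates 1 and 2 against 3251 and 3991 CPM in the invasion zone. All 11 of 12 hypoxia markers that could be tested were called lower (median -1.72), with sums of 2396 and 2290 CPM in the core against 777.7 and 548.0 CPM. Both lists were chosen with earlier results of these data known. Each holds genes that the study itself reported as differing between these zones, so these counts are a description and not independent support. The markers with the smallest unblocked p were BNIP3 and KDM3A, at log2 differences of -1.72 and -1.42, and PCNA and CCNE2, at 0.91 and 1.34, and others of both lists differed by more. The endothelial marker PECAM1 was also called lower with the block (adjusted p 0.00047). The part of these markers in the differences of the nucleotide genes was not tested. In bulk samples a larger share of cycling cells and more RNA per cycling cell cannot be told apart.

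Most of the 33 genes were higher in the invasion zone. Their summed level was 2450 and 3223 CPM in core replicates 1 and 2 and 4172 and 4779 CPM in invasion zone replicates 1 and 2, so the zones did not overlap, and core replicate 2 lay nearer to the invasion zone than core replicate 1. The log2 difference was positive for 30 genes and negative for 3 (RRM2B, TK2 and SAMHD1), with a median of 0.56 beside -0.0093 over all genes tested. In 27 of the 33 genes the lower invasion zone library still exceeded the higher core library, an order found in 28.3% of all genes tested. In 3 both invasion zone libraries lay below the core, as in 30% of all genes tested, and the remaining 3 were NME2, IMPDH2 and ADSS, whose zones overlapped.

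The test that answers whether these differences exceed the spread between libraries depends on how that spread is taken. In edgeR's quasi-likelihood test without a replicate term, 0 of the 33 genes passed a Benjamini-Hochberg adjusted p of 0.05, as did 0% of all genes tested, and the members' adjusted p ran from 0.128 to 0.813. At an unadjusted p under 0.05 in the same test, 25 members were higher beside 11.9% of all genes, and 0 members were lower beside 12.4%. DESeq2 without a replicate term called 14 members higher and 0 lower, beside 6.33% higher and 6.83% lower of the genes it gave an adjusted p, and limma voom called 0. With replicates blocked, a test that compares each invasion zone library with the core library of the same number, edgeR called 27 members higher and 3 lower, beside 19.4% of all genes higher and 19.4% lower. The 3 not called were NME2, CTPS2 and ADSS. With so few libraries the blocked fit has little spread of its own per gene, so its p-values lean on spread pooled across genes. The common dispersion, edgeR's measure of that pooled spread, was 0.0468 without the block and 0.00859 with it. Below, "rose" and "fell" refer to this blocked edgeR test. Each such gene missed the adjusted p threshold in edgeR's test without a replicate term on the same filtered genes. Log2 differences and their standard errors (SE) are invasion zone over core from the test without a replicate term throughout.

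The same direction was seen inside both pairs of libraries for most members. Within replicate 1 the median log2 difference was 0.70 and within replicate 2 it was 0.60, beside 0.022 and -0.0052 over all genes tested. Both pairs put 29 members higher in the invasion zone and 3 lower, and only ADSS changed sign between them. The difference was larger within replicate 1 for 26 members. Core replicate 2 exceeded core replicate 1 in 30 members, which held for 53.0% of all genes tested, and all members but RRM2B, TK2 and NME2 followed it.

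**Figure D1:**
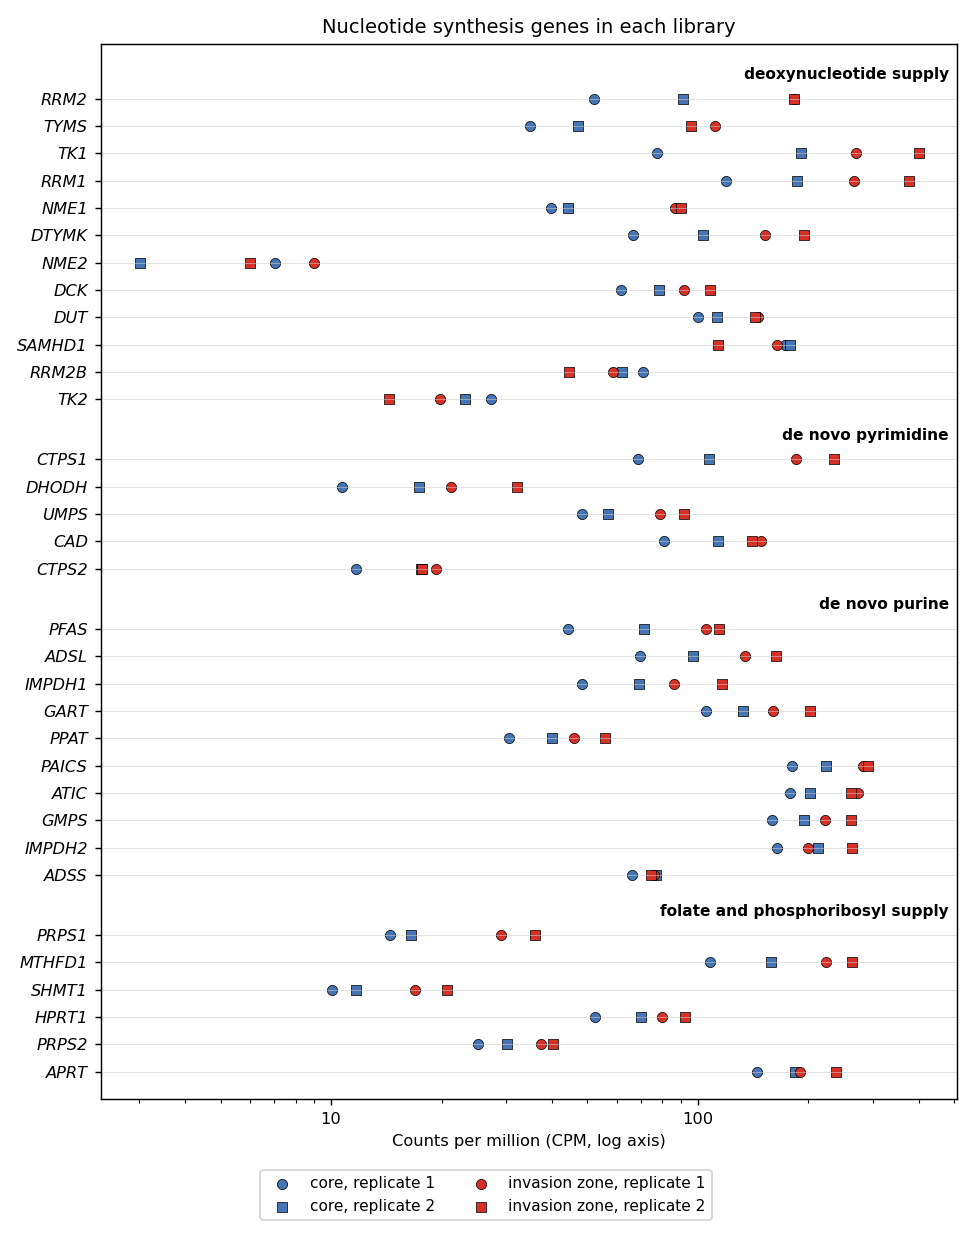
Level of each of the 33 nucleotide synthesis genes in CPM on a log axis, one point per library, by zone and replicate. In 27 genes both invasion zone points lie above both core points, and in RRM2B, TK2 and SAMHD1 they lie below.

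Deoxynucleotide supply held the widest range of differences, from -0.57 for TK2 to 1.35 for RRM2 (log2), and 8 of its 12 genes rose while 3 fell. Of all genes tested 19.4% rose and 19.4% fell, so the 3 that fell are near the share of all genes. These shares also stand beside the counts of the other branches below. RRM2 (chr2:10120698-10211725), the small subunit of the reductase used in replicating cells, was at 52.1 and 91.2 CPM in the core and at 182.6 and 182.5 CPM in the invasion zone. The means were 71.7 ± 27.6 and 182.5 ± 0.117 CPM (SD, n = 2), and the 2 invasion zone libraries were all but equal while the core libraries were far apart. Its log2 difference was 1.35 ± 0.27 (SE), with an adjusted p of 0.128 in edgeR without the block and 0.000289 with it. The size depended on the core library used, being 1.81 within replicate 1 and 1.00 within replicate 2.

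RRM1, the large subunit, was at 119.4 and 186.1 CPM in the core and at 266.2 and 375.2 CPM in the invasion zone. Its log2 difference of 1.06 ± 0.27 was nearly equal in the pairs, 1.16 and 1.01, and the adjusted p in edgeR was 0.135 without the block and 6.05e-05 with it. RRM2B, the p53-inducible small subunit, ran the other way, from 71.0 and 61.9 CPM in the core to 58.8 and 44.6 CPM in the invasion zone. Its log2 difference was -0.37 ± 0.20, with an adjusted p of 0.307 without the block and 0.0149 with it. With 1 library left out it was -0.24 without core replicate 1, -0.60 without invasion zone replicate 1 and -0.18 without invasion zone replicate 2.

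The thymidylate enzymes rose together. TYMS, which methylates dUMP to dTMP, was at 34.9 and 47.1 CPM in the core and at 111.0 and 95.7 CPM in the invasion zone, for a log2 difference of 1.33 ± 0.19 (adjusted p in edgeR 0.128 without the block and 0.00021 with it). TK1, the cytosolic thymidine kinase of replicating cells, was at 77.6 and 191.3 CPM in the core and at 270.4 and 399.5 CPM in the invasion zone, where the core libraries differed more than 2-fold. Its log2 difference was 1.31 ± 0.44, 1.80 within replicate 1 and 1.06 within replicate 2, with an adjusted p of 0.168 without the block and 0.000194 with it, and it was 0.82 without core replicate 1 and 2.09 without core replicate 2. DTYMK, which phosphorylates dTMP, went from 66.4 and 103.0 CPM to 152.4 and 195.0 CPM, a log2 difference of 1.03 ± 0.25 (0.135 and 0.000104). TK2, the mitochondrial thymidine kinase, went the opposite way, from 27.4 and 23.2 CPM to 19.8 and 14.4 CPM, a log2 difference of -0.57 ± 0.23 (0.211 and 0.00768) that became -0.36 without invasion zone replicate 2.

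Opposite to the reductase stands SAMHD1, a hydrolase that degrades deoxynucleotides, at 172.4 and 178.6 CPM in the core and at 164.5 and 113.3 CPM in the invasion zone. Its log2 difference of -0.34 ± 0.21 had an adjusted p of 0.369 without the block and 0.046 with it, and it came almost wholly from replicate 2, at -0.66 against -0.07 within replicate 1. Without invasion zone replicate 2 the difference was -0.10, and without invasion zone replicate 1 it was -0.65. DUT, which removes dUTP, and DCK, which phosphorylates deoxycytidine, rose by 0.43 and 0.50 on the log2 scale.

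NME1, a nucleoside diphosphate kinase that makes triphosphates, was at 39.8 and 44.3 CPM in the core and at 86.8 and 89.8 CPM in the invasion zone. Its core libraries were close together and so were its invasion zone libraries, and the log2 difference was 1.06 ± 0.14 (adjusted p in edgeR 0.128 without the block and 0.000105 with it). NME2, its neighbour on chromosome 17, was low, with 255 and 45 counts in the core and 337 and 71 in the invasion zone, and its log2 difference of 0.55 was not called with the block (adjusted p 0.0836). It was 1.35 without core replicate 1, 0.09 without core replicate 2, and leaving out invasion zone replicate 1 gave 0.21. NME1 shares 638 of its 3415 exonic bases, and NME2 603 of its 2496, with the annotated readthrough gene NME1-NME2, which had 0 counts in every library. Those totals pool the exons of all annotated transcripts. The canonical transcripts have only 890 bases for NME1 and 690 for NME2, so the shared part of a transcript can be much larger. How reads on the shared bases were counted is not known, so the levels of both genes are uncertain.

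Exons of other genes on the opposite strand also cover parts of TYMS (1160 of 2421 bases, with ENOSF1 and TYMSOS), TK2 (1617 of 10339 bases), SAMHD1 (1068 of 10835 bases, with TLDC2), MTHFD1 (1920 of 17357 bases) and DUT (533 of 3674 bases). The strand setting of the counting is not given in the sources used here, so reads from these stretches cannot be assigned to one strand, and the values of these genes carry that limit. Shorter stretches of this kind lie in SHMT2 (385 bases), SHMT1 (197), IMPDH2 (132), PPAT (121) and RRM1 (63), so the SHMT2 to SHMT1 and IMPDH2 to IMPDH1 ratios below carry it too. Exons of other genes on the same strand cover 457 bases of TK2, 199 of DCK (with MOB1B) and 157 of ADSS. A strand setting would not separate reads from those bases. The base totals given here likewise pool the exons of all annotated transcripts of a gene.

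**Figure D2:**
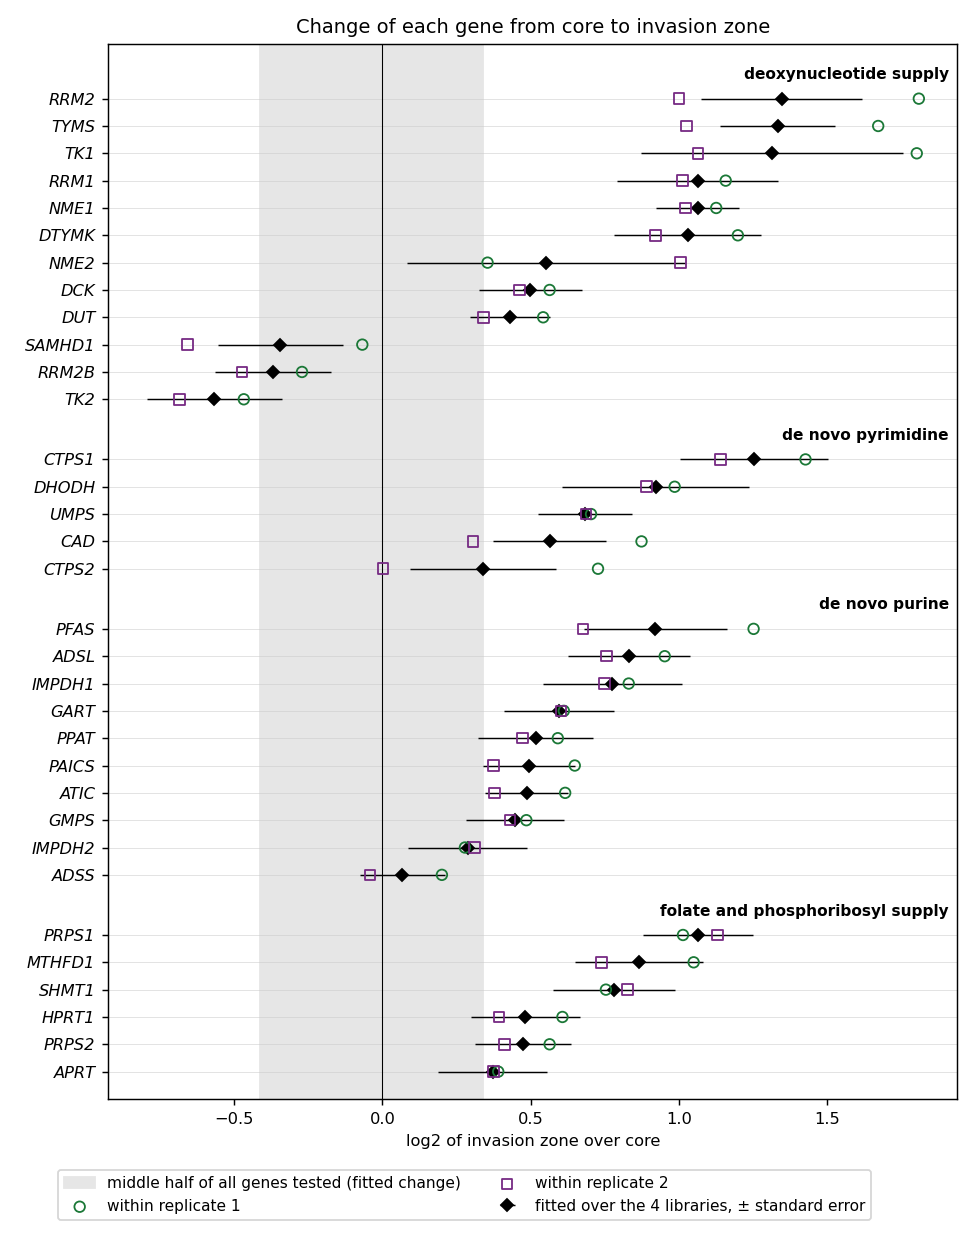
Log2 difference of invasion zone over core for each of the 33 genes, with the standard error of edgeR's test without a replicate term and the difference within each replicate pair. RRM2 stands highest at 1.35 and TK2 lowest at -0.57, and zero on the axis means no difference.

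All 5 genes of de novo pyrimidine synthesis had both invasion zone libraries above both core libraries, 4 of them rose, and the median log2 difference was 0.68. CTPS1, which aminates UTP to CTP, showed the largest difference of the branch, from 68.7 and 107.0 CPM in the core to 184.6 and 235.6 CPM in the invasion zone. Its log2 difference was 1.25 ± 0.25, with an adjusted p in edgeR of 0.128 without the block and 6.05e-05 with it. Its isozyme CTPS2 was at 11.7 and 17.6 CPM in the core and at 19.3 and 17.6 CPM in the invasion zone, higher by 0.73 within replicate 1 and almost equal within replicate 2 (0.0019), and it was not called with the block (adjusted p 0.134). Its log2 difference of 0.34 was 0.09 without core replicate 1 and 0.64 without core replicate 2.

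The 3 enzymes that lead to UMP rose by less than CTPS1. CAD, which carries out the first steps of the ring, was at 80.9 and 113.6 CPM in the core and at 148.3 and 140.4 CPM in the invasion zone, and its log2 difference of 0.56 ± 0.19 was uneven, 0.87 within replicate 1 and 0.31 within replicate 2. DHODH, the mitochondrial step coupled to the respiratory chain, was at 10.7 and 17.4 CPM against 21.2 and 32.2 CPM, a log2 difference of 0.92 ± 0.32. UMPS, which completes UMP, went from 48.4 and 57.0 CPM to 78.8 and 91.7 CPM, and its pairs were almost equal at 0.70 and 0.69. With the block the adjusted p in edgeR was 0.00574 for CAD, 0.000702 for DHODH and 0.000524 for UMPS, and without it the 3 values lay at 0.168, 0.169 and 0.132. The CAD difference was 0.36 without core replicate 1, and that of DHODH was 0.61 without invasion zone replicate 2.

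De novo purine synthesis was higher as well, by smaller amounts, with a median log2 difference of 0.51, 9 of 10 genes risen and none fallen. Of the enzymes that build IMP, PFAS, which carries the fourth step of the ring, differed most, from 44.3 and 71.4 CPM in the core to 105.3 and 114.1 CPM in the invasion zone. Its log2 difference was 0.92 ± 0.24, 1.25 within replicate 1 and 0.68 within replicate 2 (adjusted p in edgeR 0.136 without the block and 0.000615 with it). ADSL, which acts both on the way to IMP and from IMP to AMP, went from 69.4 and 97.0 CPM to 134.2 and 163.6 CPM, a log2 difference of 0.83 ± 0.21 (0.135 and 0.000179).

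PPAT, the committed step of the pathway, was at 30.5 and 40.1 CPM in the core and at 45.9 and 55.6 CPM in the invasion zone. PAICS, which lies back to back with PPAT across the 125 bases printed above, was at 180.2 and 224.1 CPM against 282.4 and 290.4 CPM. Their log2 differences were nearly the same, 0.52 ± 0.19 for PPAT and 0.49 ± 0.16 for PAICS, and both rose with the block (adjusted p in edgeR 0.00351 and 0.00187). GART, a trifunctional enzyme of the same pathway, rose by 0.60, with 0.61 and 0.60 within the pairs. ATIC, which closes the ring, rose by 0.49.

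Beyond IMP the genes on the GMP and AMP sides are given in turn, and whether the sides differ was not tested. ADSL, which also acts on the AMP side, is described above. On the GMP side, IMPDH1 went from 48.4 and 69.0 CPM in the core to 86.0 and 116.0 CPM in the invasion zone, for a log2 difference of 0.77 ± 0.23, and GMPS rose by 0.45. IMPDH2, the other isozyme of this rate-limiting step, was at 164.2 and 212.0 CPM in the core and at 199.1 and 263.0 CPM in the invasion zone, so that invasion zone replicate 1 lay below core replicate 2. Its log2 difference of 0.29 ± 0.20 was called with the block (adjusted p in edgeR 0.0148) and not without it (0.430). It was 0.14 without core replicate 1, and leaving out invasion zone replicate 2 gave 0.08, against 0.47 without either of the other libraries. On the AMP side, ADSS was at 66.0 and 76.9 CPM in the core and at 75.9 and 74.6 CPM in the invasion zone, with a log2 difference of 0.07 ± 0.14 (0.813 without the block and 0.592 with it). The ADSS difference was -0.015 without core replicate 1 and 0.17 without core replicate 2.

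All 6 genes of folate, phosphoribosyl and salvage supply rose, with a median log2 difference of 0.63. PRPS1, which makes phosphoribosyl pyrophosphate, stood out among them, at 14.4 and 16.5 CPM in the core and at 29.1 and 36.1 CPM in the invasion zone. Its log2 difference was 1.06 ± 0.19, with an adjusted p in edgeR of 0.128 without the block and 0.000291 with it, and its isozyme PRPS2 rose by 0.47. MTHFD1 and SHMT1, which supply one-carbon units in the cytosol, rose by 0.87 and 0.78. MTHFD1 was at 108.0 and 158.1 CPM in the core and at 223.5 and 263.7 CPM in the invasion zone. Of the salvage enzymes for purine bases, HPRT1 rose by 0.48 and APRT by 0.37, with APRT at 145.1 and 183.5 CPM in the core and 190.2 and 237.8 CPM in the invasion zone. Without core replicate 1 the differences were 0.31 for HPRT1 and 0.24 for APRT, and APRT was at 0.21 without invasion zone replicate 2.

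A difference of at least 2-fold higher together with an unadjusted p under 0.05 was reached by 8 members, beside 2.92% of all genes tested, and 0 members were as much lower, beside 5.85%. They were RRM1, RRM2, TYMS, TK1, DTYMK and NME1 of deoxynucleotide supply, CTPS1 of pyrimidine synthesis and PRPS1 of phosphoribosyl supply, and no gene of the purine branch was among them. The number of members at least 2-fold higher without regard to p, also 8 over all libraries, depended on the libraries used. It was 4 when core replicate 1 was left out and 13 when core replicate 2 was left out. When an invasion zone library was left out it was 9 without replicate 1 and 5 without replicate 2. Whether the branches differ from one another in size was not tested.

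**Figure D3:**
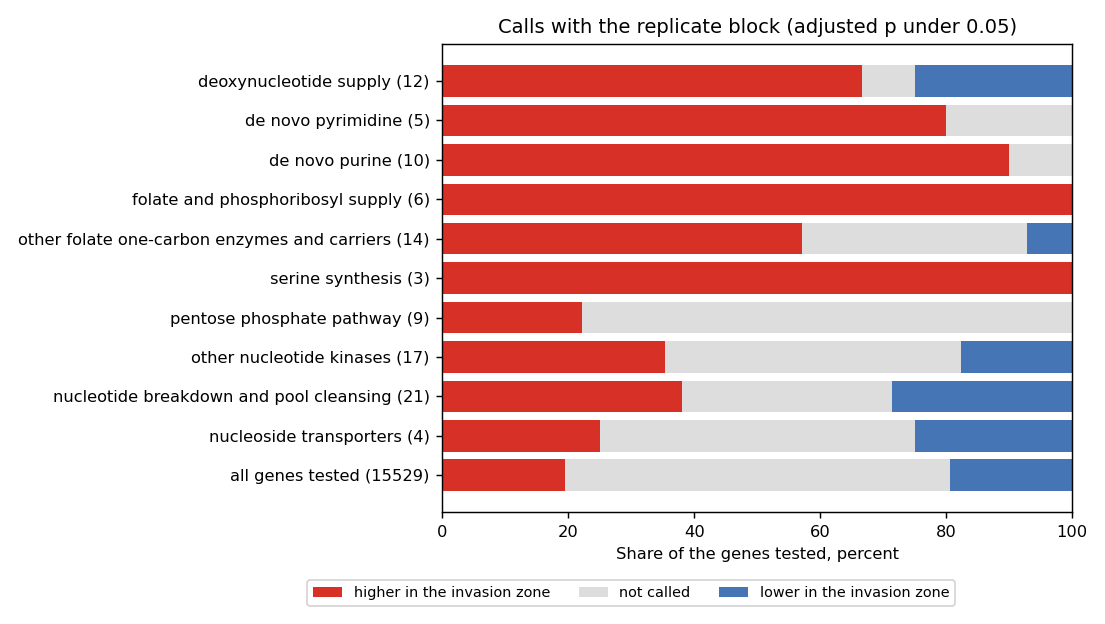
Share of the genes tested, in percent, called higher, called lower or not called in the invasion zone by edgeR with replicates blocked. Bars stand for the branches, the neighbouring lists described below and all genes tested. Among the branches, purine, pyrimidine and folate genes hold no gene called lower. The 3 members called lower all belong to deoxynucleotide supply, and the neighbouring lists hold further genes called lower.

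Where an enzyme has more than 1 form, the ratio of the forms within a library does not depend on library scaling. These ratios are not corrected for transcript length, so they are compared between zones and not between genes. The RRM2 to RRM2B ratio of CPM was 0.734 and 1.47 in the core and 3.10 and 4.09 in the invasion zone, so that every invasion zone library lay above both core libraries. The TK1 to TK2 ratio was 2.84 and 8.26 in the core and 13.7 and 27.7 in the invasion zone. The log2 difference in these ratios was 1.78 and 2.01, and in neither did the zones overlap. The TK1 to TK2 difference was 1.24 without core replicate 1 and 2.78 without core replicate 2, and that of RRM2 to RRM2B was 1.27 and 2.28. The CTPS1 to CTPS2 ratio, 5.88 and 6.07 in the core against 9.54 and 13.4, and the PRPS1 to PRPS2 ratio, 0.573 and 0.545 against 0.782 and 0.897, were also higher in both invasion zone libraries.

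Other ratios were lower there. The IMPDH2 to IMPDH1 ratio was 3.40 and 3.07 in the core and 2.32 and 2.27 in the invasion zone, and the ratio of mitochondrial SHMT2 to cytosolic SHMT1 was 8.42 and 9.69 in the core and 6.98 and 7.37 in the invasion zone. The NME1 to NME2 ratio overlapped between zones, at 5.67 and 14.7 in the core and 9.68 and 14.9 in the invasion zone, and its log2 difference of 0.39 became -0.29 without core replicate 1. With 2 libraries against 2, an exact permutation test (two-sided) cannot go below p = 0.333, which 6 of the 7 pairs reached (Benjamini-Hochberg adjusted 0.389), and NME1 to NME2 gave an exact p of 0.667.

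**Figure D4:**
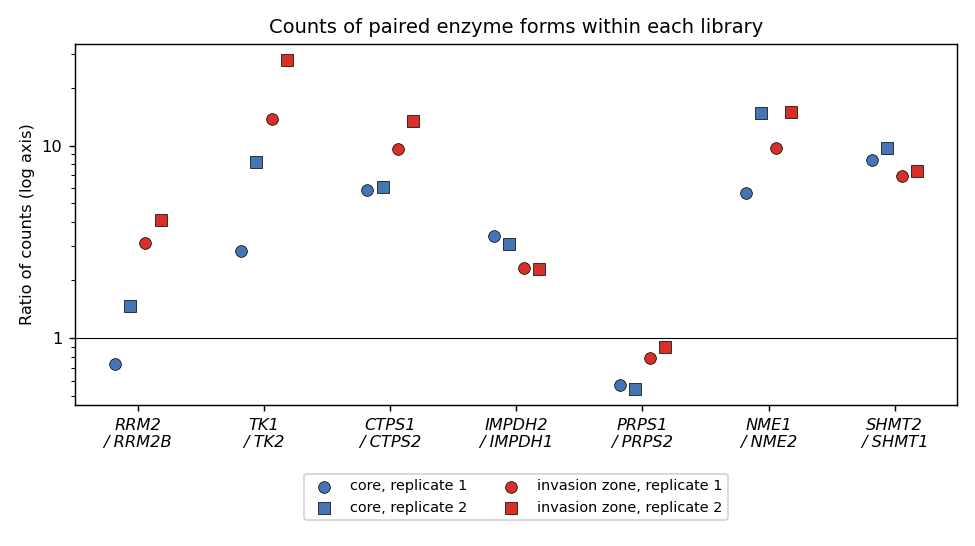
Ratio of CPM between the forms of an enzyme, on a log axis, one point per library for 7 pairs of genes. For RRM2 to RRM2B the points run from 0.734 in core replicate 1 to 4.09 in invasion zone replicate 2, and for IMPDH2 to IMPDH1 the invasion zone points lie below the core points.

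Levels can be compared between genes only per length, here as mean CPM per kilobase of the canonical transcript. On that scale APRT led in the core at 176.5, followed by IMPDH2 at 113.9, ATIC at 96.2, TK1 at 93.9 and DTYMK at 80.6. In the invasion zone TK1 came first at 234.1, ahead of APRT at 229.9 and DTYMK at 165.3. RRM2 moved from rank 19 of 33 to rank 13 and CTPS1 from 14 to 9, whereas SAMHD1 moved from 11 to 19 and RRM2B from 22 to 29. TK2 went from rank 30 to the last, and DHODH, at 3.01, was the lowest in the core. The ranks describe means of 2 libraries, and those of TK1 and APRT in the invasion zone lie too close together to be ordered.

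Neighbouring pathways were read in the same blocked test, from lists of genes grouped by function. In that test 19.4% of all genes tested rose and 19.4% fell. Of 14 tested genes among 16 listed for other folate enzymes and carriers, 8 rose, 1 fell and 5 were not called, with a median log2 difference of 0.47. SLC19A1, the reduced folate carrier, and MTHFD1L, a mitochondrial formate-producing enzyme, rose by 0.88 and 0.81. All 3 genes of serine synthesis rose, PSAT1 by 0.69 and PSPH by 0.39.

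The pentose phosphate pathway, which provides ribose phosphate, had a median log2 difference of 0.16, and 2 of its 9 genes rose, near the 19.4% of all genes tested. RPIA, which isomerises ribulose phosphate to ribose phosphate, rose by 0.93, and TALDO1 of the non-oxidative arm by 0.31. PGLS, of the oxidative arm, was not called, at -0.17.

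Other nucleotide kinases were mixed, as 6 of 17 tested genes among 18 listed rose, 3 fell and 8 were not called, the 3 being near the share of all genes that fell (19.4%). ADK, the adenosine kinase, and UCK2, a uridine-cytidine kinase of salvage, rose by 0.75 and 0.62. The 3 that fell were NME3 at -0.77, AK4 at -0.75 and AK1 at -0.58.

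Genes of nucleotide breakdown and pool cleansing went both ways, 8 up and 6 down of 21 tested among 22 listed, with a median log2 difference of 0.23. ADA, which deaminates adenosine, showed the largest fall, from 51.4 and 36.1 CPM in the core to 16.6 and 9.42 CPM in the invasion zone (log2 difference -1.75, adjusted p in edgeR 6.05e-05 with the block). TYMP, DPYD, AMPD2, AMPD3 and GMPR2 fell as well. DCTPP1, a pyrophosphatase that cleanses the deoxycytidine pool, went from 44.99 and 64.2 CPM to 105.9 and 135.5 CPM, a log2 difference of 1.14, and the purine nucleoside phosphorylase PNP from 9.82 and 15.4 CPM to 24.5 and 31.6 CPM, a log2 difference of 1.15. Both rose with the block (adjusted p 7.71e-05 and 0.000298).

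Of 4 tested nucleoside transporters among 7 listed, SLC29A1, the main equilibrative carrier, rose from 50.1 and 91.8 CPM in the core to 107.3 and 187.0 CPM in the invasion zone, for a log2 difference of 1.05. SLC29A3 fell, on 96 and 37 counts in the core against 40 and 2 in the invasion zone. SLC28A3 and SLC29A2, at log2 differences of 1.38 and -0.51, were not called, and SLC28A3 had at most 37 counts in a library. Over all 68 tested genes of these neighbouring lists, 28 rose, 11 fell and 29 were not called, with a median log2 difference of 0.28, beside 19.4% of all genes tested risen and 19.4% fallen.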

How the data were processed

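Before deposit, the authors used Bowtie to take out ribosomal RNA reads, a quality filter, STAR for alignment to hg38 and HTSeq-count on uniquely mapped reads, and the deposited values are the resulting raw counts. For tool versions, annotation release and strand, the answer is not given in the sources used here. RNA was amplified from a low input with a SMARTer kit, and counts are reads, not molecules.

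Of 56306 rows, 2 repeated ones were left out, and 0 columns of per-sample values were unused. In R 4.3.3 with edgeR 4.0.16, genes were kept by filterByExpr (minimum count 10, minimum total 15), scaled by TMM and compared between zones by the quasi-likelihood test with Benjamini-Hochberg adjustment over 15529 genes. The standard error is the log2 difference divided by the square root of F. The edgeR test was also run on simulated counts, with a dispersion below that of these data without the block. Where a replicate shift was simulated it was the same in both zones. These runs therefore cannot show whether the block suits these data. The labels' protocol takes the core and then its corresponding invasion zone, which was read as pairing same-numbered libraries, although no source says that a number stands for one spheroid, batch or day. The deviations from the zone means correlated at 0.58 across genes between core replicate 1 and invasion zone replicate 1. With 2 libraries per zone the replicate 2 deviations are the negatives of these, so they add no further value. Both replicate 2 libraries were also shallower, and what makes libraries of one number alike was not tested. As nothing else says how the replicates were grown, p-values without the block measure the spread between the libraries of a zone. Blocked p-values measure only the spread left once differences shared by same-numbered libraries are removed. The printed standard errors come from the test without a replicate term, so they include the spread between libraries of a zone. For TK1 the standard error was 0.44 without the block and 0.15 with it.

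The members and lists were chosen with earlier results of these data known. Every member is named, and from each other list the 2 genes with the smallest p in each direction, except 2 genes that are not reported here. Genes of neighbouring lists named beyond that rule (AK1, TYMP, DPYD, AMPD2, GMPR2) were chosen after their values were seen, because the counts they belong to are small. The lists were other folate enzymes, serine synthesis, pentose phosphate pathway, other kinases, breakdown, transporters, cell cycle, hypoxia and cell type markers. Alternatives were RLE and upper-quartile scaling, other filters, the block, DESeq2 1.42.0, limma voom (limma 3.58.1), thinning to the smallest library, a GC and length correction (mgcv 1.9.3), other thresholds and each library left out. Gene positions came from GENCODE on GRCh38, and promoters from RefSeq on GRCh38.p14. Exact tests used scipy 1.17.1 and figures matplotlib 3.10.9 in Python 3.11.15.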

Additional observations from a re-analysis of the deposited data

How the results depend on the processing

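The pairing decided most calls. Without it edgeR called 0 genes in each direction, and with the replicate block it called 3009 genes higher and 3007 lower in the invasion zone, and 27 members higher and 3 lower. The block with limma voom called 3233 and 3228 genes and 27 and 3 members, with DESeq2 2185 and 1939 genes and 27 and 1 members (TK2 the one lower), and with the GC and length correction 3991 and 2711 genes and 29 and 3 members. That correction raised the share of higher calls to 59.6% from 50.0% with the block alone. Without the block, DESeq2 called 811 genes higher and 876 lower and 14 members higher, no filter on low counts 1148, 1425 and 17, and an unadjusted p with a 2-fold minimum 454, 909 and 8. RLE and upper-quartile scaling, limma voom, 10 counts in every library, thinning and the GC and length correction without the block called none. With 1 library left out, whose lone partner is assumed to vary like the other zone, the calls ran from 13 to 898 genes higher, 125 to 1331 lower and 0 to 14 members higher. The fewest came without core replicate 1. The members' median log2 difference of 0.56 became 0.65 with the GC and length correction, which also moved the median of all genes from -0.0093 to 0.071, and 0.46 to 0.77 with 1 library left out. The same correction gave medians of 0.89 for pyrimidine and 0.75 for folate genes, and leaving out a library gave 0.78 to 0.90 for deoxynucleotide, 0.40 to 0.68 for purine and 0.51 to 0.79 for folate genes. Signs changed for ADSS, at -0.015, and for the NME1 to NME2 ratio, at -0.29, both without core replicate 1, and their highest values were 0.17 and 1.08, both without core replicate 2. The direction of the other 32 members was the same in every setting tried. The causes of these shifts were not tested. With 2 libraries per zone, and replicate 2 at 11789243 to 14983135 counts, small differences such as that of IMPDH2 are near what these data can resolve.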
